A study of Homo sapiens with 12 samples.

Results

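HK-2 cells treated with iohexol were compared directly with HK-2 cells treated with vancomycin, in 6 of the 12 samples of the series. The members were taken from the sample labels, 3 samples labelled Iohexol against 3 labelled Vancomycin, with no control sample in the test. HK-2 is an immortalized line of human kidney proximal tubule epithelium, so every group is the same cell line, and the labels name no genetic change in any of them. Iohexol, an iodinated contrast medium for X-ray imaging, was given at 75 mg I/mL, and vancomycin, a glycopeptide antibiotic that blocks the building of the bacterial cell wall, at 4 mM, each for 48 h. The 3 control samples, labelled as treated with water, served only to tell which drug had moved a gene, and the 3 cisplatin samples were used only for the scaling of levels. Each drug was given at a single dose and a single time, and these doses have no common scale.

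The total count on annotated genes was 14057282, 15071433 and 14650252 in the iohexol samples and 17811277, 16738188 and 18177109 in the vancomycin samples, so every vancomycin library was deeper. Levels are given as CPM, the gene's count scaled to a common library size, which is the total count times a composition factor. In the 6 libraries, 3 counts, the smallest number treated as detected, stood for 0.185 to 0.207 CPM, a floor that covers counting error only. The labels do not say that the replicates were separate cultures, so the p-values measure the spread between these samples, which may be technical. Iohexol replicate 3 stood somewhat apart from the other iohexol samples, with Pearson's r across genes of 0.987 and 0.988 to them, while the other replicate pairs of both drugs had r of 0.991 to 0.994. Between an iohexol and a vancomycin sample r was 0.928 to 0.952.

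The proximal tubule reabsorbs most of what the glomerulus filters, and its cells take up many drugs from the filtrate and from the blood. Many contrast media are hyperosmotic solutions, but the osmolality of the culture medium with iohexol is not given in the sources used here. Kidney cells answer hyperosmolality through the transcription factor NFAT5 (TonEBP), which drives genes for the uptake or synthesis of organic osmolytes. Vancomycin enters proximal tubule cells, gathers in their lysosomes and is known for oxidative stress in them. Genes for antioxidant enzymes, lysosomal enzymes and metal-binding metallothioneins are common readouts of such stress.

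The labelled cell type was checked against marker genes. The epithelial and tubular genes PAX8 (526 to 677 CPM with iohexol, 366 to 430 CPM with vancomycin), KRT8, KRT18, EPCAM, GGT1 and DPP4 were present in all 6 samples. Transporters and receptors that define the tubule in the kidney were at or near 0 in these cells: SLC22A6 and SLC22A8, the basolateral organic anion carriers, had no count in any of the 6 samples, and LRP2 (megalin), the large endocytic receptor, had at most 0.188 CPM. The adhesion gene CDH1 had at most 0.468 CPM. Of markers of other cell types, WT1 had no count, and PTPRC, CD3E, CDH5, KDR, UMOD and AQP2 had at most 0.338 CPM. Other members of the same lists were counted. SYNPO, an actin-binding protein listed for podocytes, had 80.5, 89.8 and 63.8 CPM with iohexol and 85.0, 75.3 and 88.0 CPM with vancomycin, and PODXL of the same list had 7.32, 8.25 and 9.09 against 16.8, 15.5 and 22.0 CPM. The leukocyte genes CD14 and ITGAM had at most 3.69 and 2.06 CPM. PECAM1, listed for endothelium, had at most 4.01 CPM, and SLC12A3, a carrier of the distal tubule, had 1.73, 1.66 and 1.87 CPM with iohexol and 0.626, 0.270 and 0.924 CPM with vancomycin. The 4 fibroblast markers summed to 81.3, 83.0 and 94.2 CPM with iohexol and to 207.1, 235 and 198 CPM with vancomycin, mostly from LUM, a matrix proteoglycan, while PDGFRA was at 0 in 5 of the 6 samples. By the thresholds given below, all 3 tested fibroblast markers were higher with vancomycin (all genes 10.8%). Their median log2 fold change, iohexol minus vancomycin, was -1.22. In bulk RNA, fewer cells of a type and less RNA per cell cannot be told apart, and the part of other cells in any result was not tested.

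Of 16063 genes tested between the drugs, 1453 were higher with iohexol (9.05%) and 1732 were higher with vancomycin (10.8%), so that 19.8% were called in either direction. A gene was called when its adjusted p in edgeR's quasi-likelihood test was under 0.05 and its log2 fold change, iohexol minus vancomycin, was above 1 or below -1. The log2 fold changes ran from -8.48 to 8.47, with a median of 1.45 among the genes called higher with iohexol, of -1.47 among those called higher with vancomycin and of 0.01 over all genes tested. By the adjusted p alone 8699 genes (54.2%) differed. In 9874 genes (61.5%) the 3 iohexol samples did not overlap the 3 vancomycin samples, and 3126 of the 3185 called genes were among these. The split depended on the scaling: with the total count as the only scale, 2067 genes were higher with iohexol and 1262 with vancomycin, and the median of all genes was 0.20. List medians are therefore read against that of all genes, and counts of called members against the 9.05% and 10.8%. A called member whose lower group fell under the minimum of the filter on low counts in any sample passed that filter through the other group. Among the lists described these included AQP1, SRXN1, AKR1B10, GABARAP, ATP6V0D2, HSPA6, CA9, MMP2, MMP9, MMP10, MMP13, TNFAIP6, COL11A1, COL17A1, ACTA2, ACTG2, CXCL1, CCL5, IL1A, CUBN, PECAM1, SLC12A3 and the structural RNAs. The counts of the lists that hold them, and the p-values of these genes, are therefore descriptions. Where a whole list had no member called in a direction, the count was also 0 with DESeq2, with limma-voom and at an unadjusted p under 0.05, each with the same fold threshold.

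**Figure D1:**
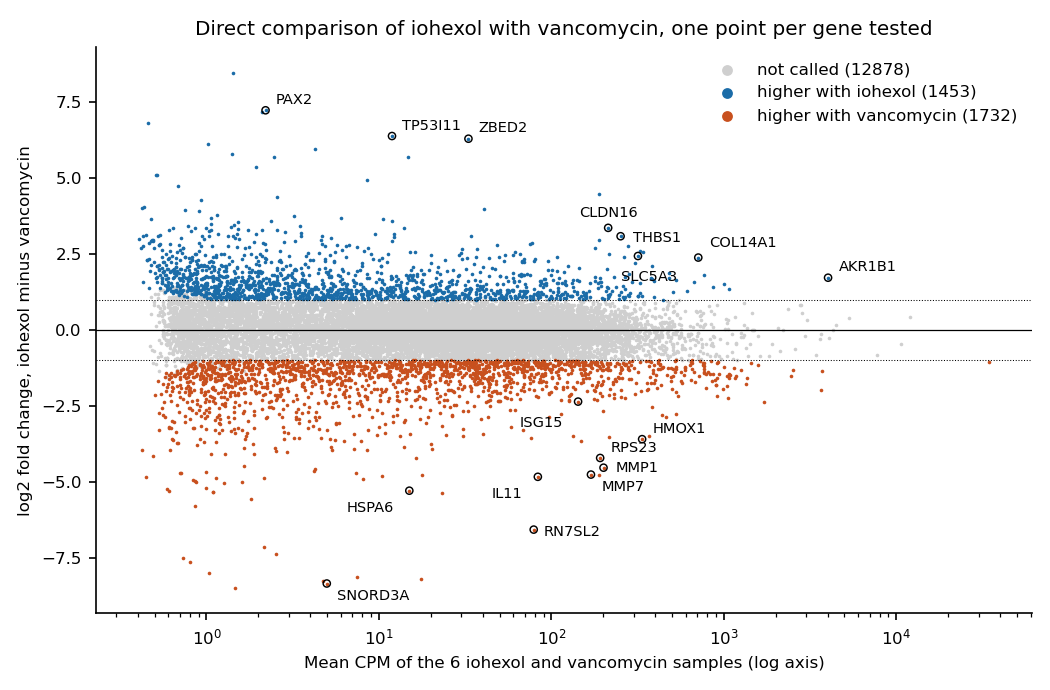
Each point is a gene tested, with the mean CPM of the 6 samples on a log axis and the log2 fold change, iohexol minus vancomycin, on the vertical axis. Blue points (1453) were higher with iohexol, orange points (1732) higher with vancomycin, dotted lines mark 1 and -1, and circled genes are described in the text.

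The control samples placed most of these differences on the vancomycin side. Among the 1453 genes higher with iohexol, vancomycin was below the control in 745 and iohexol was above it in 269. In 704 genes only vancomycin had been called against the control, in 231 only iohexol, and in 30 iohexol was above and vancomycin below. Among the 1732 genes higher with vancomycin, vancomycin was above the control in 1147 and iohexol below it in 108. The mean of the vancomycin samples lay farther from the control mean than that of the iohexol samples in 68.3% of the genes higher with iohexol and in 88.6% of those higher with vancomycin. Neither drug was called against the control in 469 and 504 of the called genes. Against the control, 4.02% of the genes tested were above it and 1.25% below it with iohexol (5.28% in all), and 10.8% above and 7.65% below with vancomycin (18.5% in all), in fits that share the control samples with each other and 3 drug samples each with the direct comparison.

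**Figure D2:**
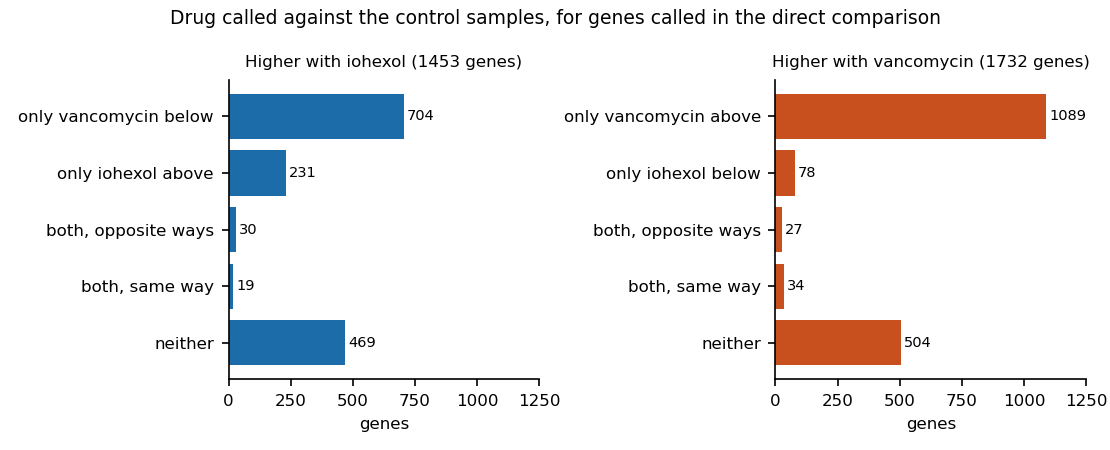
Bars count the genes called in the direct comparison by which drug was also called against the control samples, with genes not tested against the control counted as not called. Vancomycin alone was called in 704 of 1453 genes higher with iohexol and in 1089 of 1732 genes higher with vancomycin.

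The 8 protein-coding genes higher with iohexol that had the smallest p were ZBED2, CLDN16, GFRA1, FGFR2, SDC2, TP53I11, COL12A1 and THBS1, and vancomycin was below the control in each of them. ZBED2 (chr3:111592900-111595443, minus strand, GRCh38), which encodes a zinc finger transcription factor, had 69.9, 61.7 and 64.0 CPM in the iohexol samples, 0.876, 1.08 and 0.554 CPM in the vancomycin samples and 46.6, 46.7 and 41.6 CPM in the control samples. The level was 78.5-fold higher with iohexol (log2 fold change 6.29, SE 0.19, adjusted p = 3.34e-14). ZBED2, with 9 counts in vancomycin replicate 3, and TP53I11 passed the filter on low counts through the iohexol samples. Their p-values are therefore descriptions. CLDN16 (chr3:190322541-190412143, plus strand), a claudin that lets magnesium and calcium pass the tight junctions of the thick ascending limb, had 378, 352 and 436 CPM with iohexol, 37.0, 41.0 and 36.5 CPM with vancomycin and 241, 238 and 224 CPM in the control. The drugs did not overlap and differed 10.3-fold (log2 3.36, SE 0.12, adjusted p = 2.06e-13), with iohexol above and vancomycin below every control sample.

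THBS1 (chr15:39581079-39599466, plus strand), the secreted matrix protein thrombospondin 1 that activates latent TGF-beta, fell with both drugs, but not alike. It had 1199.7, 1191 and 1244 CPM in the control, 415, 462 and 472 CPM with iohexol and 63.6, 49.1 and 48.0 CPM with vancomycin. The gap between the drugs was 8.48-fold (log2 3.08, SE 0.13, adjusted p = 1.29e-12). GFRA1, a receptor for glial cell line-derived neurotrophic factor, and SDC2, the cell surface proteoglycan syndecan 2, were 6.86-fold and 5.91-fold lower with vancomycin, and neither was called with iohexol against the control (log2 -0.06 and 0.10). FGFR2, a receptor of fibroblast growth factors, had 73.9, 86.9 and 67.4 CPM with iohexol and 5.44, 3.92 and 5.24 CPM with vancomycin, a difference of 15.7-fold (log2 3.97, SE 0.16). TP53I11 had 24.3, 24.2 and 22.1 CPM with iohexol and 0.438, 0.270 and 0.123 CPM with vancomycin, on either side of the control (6.67, 6.84 and 6.97 CPM). COL12A1, a fibril-associated collagen, was likewise on opposite sides of the control, at 131, 135 and 141 CPM with iohexol and 19.5, 17.1 and 20.1 CPM with vancomycin.

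The 8 protein-coding genes higher with vancomycin that had the smallest p were MMP7, IL11, RPS23, G0S2, MMP1, PLAUR, C1S and COL5A1. MMP7 (chr11:102520508-102530753, minus strand) encodes matrilysin, a secreted protease of epithelia that cuts matrix and cell surface proteins. It had 12.0, 11.8 and 12.0 CPM with iohexol, 293, 359.7 and 328 CPM with vancomycin and 40.8, 48.5 and 44.6 CPM in the control, so that the control lay between the drugs and no samples overlapped. The level was 27.1-fold higher with vancomycin than with iohexol (log2 -4.76, SE 0.13, adjusted p = 9.45e-15). IL11 (chr19:55364389-55370463, minus strand), a cytokine of the IL-6 family made by stromal and epithelial cells, had 6.29, 5.82 and 4.68 CPM with iohexol and 143, 174 and 167 CPM with vancomycin, a 28.5-fold difference (log2 -4.83, SE 0.14, adjusted p = 3.34e-14).

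G0S2 (chr1:209675420-209676388, plus strand), an inhibitor of the lipase that breaks down fat droplets, had 14.1, 14.97 and 10.8 CPM with iohexol and 304, 430.1 and 359 CPM with vancomycin, a 27.2-fold difference (log2 -4.76, SE 0.16). PLAUR, the receptor that holds urokinase on the cell surface, was 12.7-fold higher with vancomycin (log2 -3.67, SE 0.13) and had 23.2, 20.4 and 20.6 against 233, 308 and 283 CPM. C1S, a protease of the complement cascade, had 24.4, 21.9 and 18.8 CPM with iohexol, 20.2, 26.2 and 25.1 CPM in the control and 228, 249 and 256 CPM with vancomycin. Its counts may include reads of EMG1 and LPCAT3, which overlap it. RPS23, a ribosomal protein of the small subunit, had 21.5, 20.1 and 16.7 against 343, 399 and 349 CPM, and 14.4% of its sequence is shared with other genes, so its level is uncertain.

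**Figure D3:**
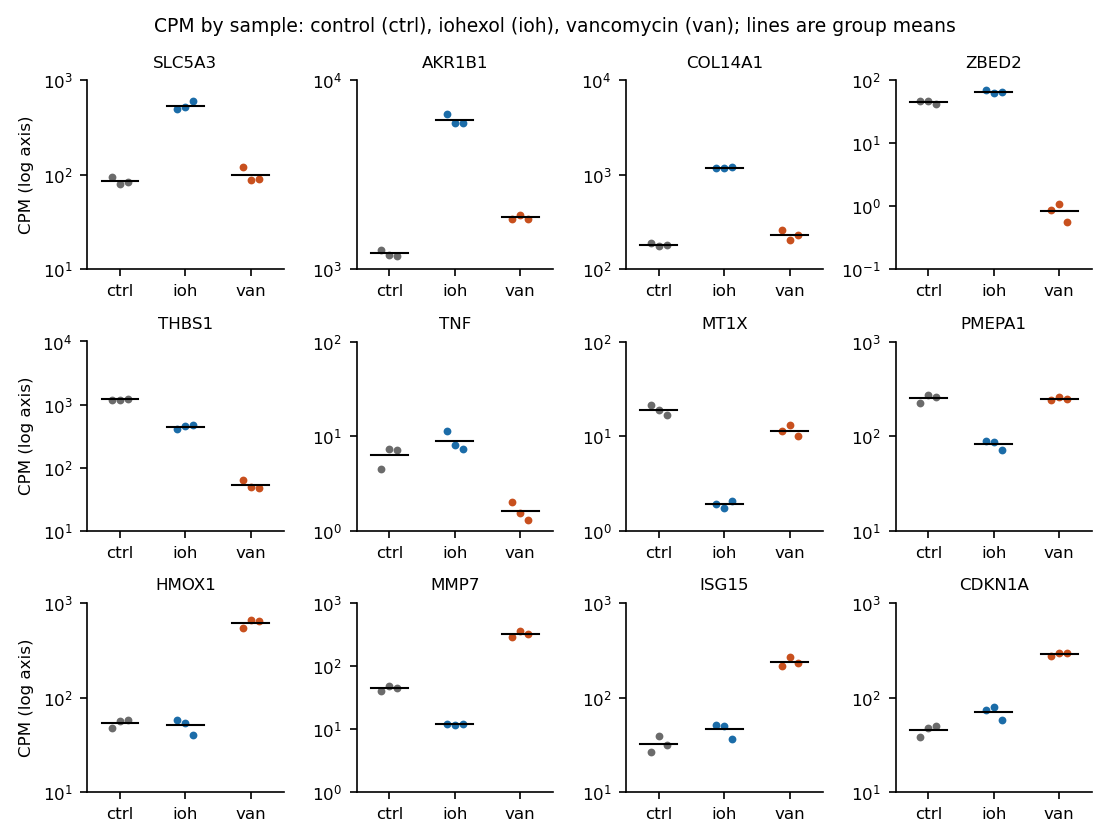
CPM on a log axis for 12 genes in the 3 control, 3 iohexol and 3 vancomycin samples, with points for samples and lines for group means. SLC5A3, AKR1B1 and COL14A1 were highest with iohexol, ZBED2, THBS1 and TNF lowest with vancomycin, MT1X and PMEPA1 lowest with iohexol, and HMOX1, MMP7, ISG15 and CDKN1A highest with vancomycin.

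Osmolyte genes were higher with iohexol in 5 of 14 tested members and with vancomycin in 2, where 9.05% and 10.8% of all genes were, with a median log2 fold change of 0.67 (all genes 0.01). The count of 2 is near the share of all genes. Against the control, 6 members were above it with iohexol and none below (all genes 4.02% and 1.25%). With vancomycin 4 were above it and 3 below (all genes 10.8% and 7.65%). SLC5A3 (chr21:34073570-34106262, plus strand), the sodium-dependent carrier that brings myo-inositol into the cell, had 489, 519 and 597 CPM with iohexol and 122, 87.3 and 90.4 CPM with vancomycin, beside 95.5, 80.1 and 83.8 CPM in the control. It was 5.40-fold higher with iohexol (log2 2.43, SE 0.13, adjusted p = 5.67e-11), and vancomycin was not called against the control (log2 0.17, adjusted p = 0.217). SLC5A3 overlaps MRPS6, so that reads of one may be counted on the other. AKR1B1, aldose reductase, which makes the osmolyte sorbitol from glucose, had 6578, 5955 and 5915 CPM with iohexol, 1848, 1949 and 1855 CPM with vancomycin and 1266, 1195 and 1183 CPM in the control.

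AKR1B1 was 3.29-fold higher with iohexol than with vancomycin (log2 1.72, SE 0.09, adjusted p = 6.19e-11), although vancomycin was itself above the control by 0.59 on the log2 scale, under the fold threshold. SLC6A12, the betaine carrier, had 67.7, 56.9 and 49.6 CPM with iohexol and 12.4, 13.8 and 12.8 CPM with vancomycin. SLC6A12 rose with both drugs from 4.35, 2.82 and 3.29 CPM in the control, and was 4.51-fold higher with iohexol than with vancomycin (log2 2.17, SE 0.14, adjusted p = 3.73e-10). NFAT5 itself had 172, 199.6 and 277 CPM with iohexol and 122, 77.0 and 103 CPM with vancomycin, with groups that did not overlap. The log2 fold change of NFAT5 was 1.11 (SE 0.17, adjusted p = 1.85e-05), and it fell to 0.91 without iohexol replicate 3 and to 0.94 without vancomycin replicate 2, under the fold threshold. In 2 further members that hyperosmolality is known to induce, the order differed. S100A4, a calcium-binding protein that S100A3 overlaps, was 2.87-fold higher with vancomycin (log2 -1.52, SE 0.13). ABCB1, the efflux pump P-glycoprotein, was 2.35-fold higher with iohexol (log2 1.23, SE 0.10), with vancomycin below the control. AQP1, the water channel of the proximal tubule, had 0.553, 0.320 and 0.0668 CPM with iohexol and 0.938, 0.945 and 0.801 CPM with vancomycin (log2 -1.49, adjusted p = 0.0312), and its call was lost with DESeq2, with the total count as the only scale, without a filter and without 5 of the 6 samples in turn.

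Metallothioneins, small cysteine-rich proteins that bind zinc and copper and are switched on through the zinc sensor MTF1, were lower with iohexol. Of the 11 metallothionein genes 7 could be tested, and 6 of these were higher with vancomycin (10.8% of all genes), with a median log2 fold change of -1.77 over the 7. These are short genes, and the median of the whole list of 10 tested genes, with zinc carriers and MTF1, went from -1.24 to -0.60 when that of genes of like length was subtracted. All 6 were below the control with iohexol (all genes 1.25%), and 3 of them were below it with vancomycin as well (all genes 7.65%). MT1X (chr16:56682424-56684196, plus strand) had 1.93, 1.73 and 2.07 CPM with iohexol, 11.3, 13.0 and 9.98 CPM with vancomycin and 21.4, 19.1 and 16.7 CPM in the control. The drugs differed 5.91-fold (log2 -2.56, SE 0.21, adjusted p = 8.55e-09) and no samples of the 3 groups overlapped. MT1G had 0.829, 1.09 and 0.936 CPM with iohexol and 7.76, 4.93 and 4.93 CPM with vancomycin, and MT1E had 22.6, 17.3 and 19.2 against 74.3, 63.3 and 66.0 CPM. In MT1G, MT1X and MT1E, 26.9%, 33.4% and 17.9% of the sequence is shared with other genes, so that reads may be split among the family, while in MT1F it is 4.18%. MT1F had 7.05, 6.40 and 5.75 CPM with iohexol and 25.6, 26.1 and 26.5 CPM with vancomycin (log2 -2.01, SE 0.14). MTF1 itself had 31.6, 35.0 and 35.4 CPM against 35.5, 28.4 and 33.1 CPM, overlapping groups with a log2 difference of 0.09 (95% interval -0.18 to 0.35).

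The promoter of MT1X is printed because the members of this family moved together and MTF1 is known to bind metal response elements near the start of these genes. The 250 bases before the start are shown (RefSeq, GRCh38.p14, chr16:56682220-56682469, plus strand), and capitals mark the letters TGCACNC or TGCGCNC on either strand, which occur 4 times.
MT1X: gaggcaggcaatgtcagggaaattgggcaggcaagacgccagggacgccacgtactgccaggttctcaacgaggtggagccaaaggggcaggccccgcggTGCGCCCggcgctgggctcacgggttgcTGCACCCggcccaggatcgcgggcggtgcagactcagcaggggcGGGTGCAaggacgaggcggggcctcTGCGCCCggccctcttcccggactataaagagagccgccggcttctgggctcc
In windows of 250 bases before and 50 after the start these letters occur in all 5 of the metallothionein promoters that were matched by symbol, of 11 genes, and in 29.6% of 35116 RefSeq promoters. The 5 were those of MT4, MT2A, MT1B, MT1H and MT1X, so the promoters of MT1E, MT1F and MT1G were not searched. A match is a description of the sequence and was not tested against the counts.

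Targets of the transcription factor NRF2, the master switch of antioxidant genes, stood higher with vancomycin. Of 31 tested members 16 were higher with vancomycin and 1 with iohexol (all genes 10.8% and 9.05%), with a median log2 fold change of -1.06. Vancomycin was above the control in 19 members (all genes 10.8%) and iohexol in 3 (all genes 4.02%). HMOX1 (chr22:35380361-35394214, plus strand), heme oxygenase 1, which breaks down heme, had 58.7, 53.9 and 40.1 CPM with iohexol, 551, 658 and 651 CPM with vancomycin and 47.7, 56.8 and 57.9 CPM in the control. The iohexol samples overlapped the control samples, and the drugs differed 12.1-fold (log2 -3.59, SE 0.14, adjusted p = 6.83e-13). AKR1C3, an aldo-keto reductase of steroids and carbonyls, had 8.08, 5.69 and 5.61 CPM with iohexol and 41.6, 51.8 and 46.6 CPM with vancomycin (log2 -2.84, SE 0.16).

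SRXN1, sulfiredoxin, which restores oxidized peroxiredoxins, was 15.4-fold higher with vancomycin, but 84.8% of its sequence is shared with another gene. SLC48A1, a carrier that moves heme out of lysosomes, was the one member higher with iohexol, at 110.2, 105 and 97.7 CPM against 16.4, 17.4 and 20.1 CPM and 42.4, 64.1 and 60.04 CPM in the control (log2 2.55, SE 0.12), and HDAC7 and RAPGEF3 overlap it. The gene of NRF2, NFE2L2, had 116, 113 and 144 CPM with iohexol and 126, 148 and 123 CPM with vancomycin, with a log2 difference of -0.08 (95% interval -0.33 to 0.16). FTH1, the heavy chain of the iron store ferritin, and EPHX1, an epoxide hydrolase, belong to the same list and rose with both drugs. Their log2 differences between the drugs were -0.19 (adjusted p = 0.104) and 0.19 (adjusted p = 0.175).

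Heat shock genes were higher with vancomycin in 5 of 13 members and with iohexol in none (all genes 10.8% and 9.05%), with a median of -0.85. HSPA6, an HSP70 chaperone that most cells make only under stress, had 0.760, 0.895 and 0.535 CPM with iohexol, 0.798, 0.439 and 0.855 CPM in the control and 19.3, 35.2 and 33.2 CPM with vancomycin. It was 39.2-fold higher with vancomycin (log2 -5.29, SE 0.28, adjusted p = 3.31e-11). HSPA6 passed the filter on low counts through the vancomycin samples, so its adjusted p is a description. HSPA1A and HSPA1B, the main inducible HSP70 genes, had 63.0, 58.8 and 48.1 against 187, 225 and 216 CPM and 48.6, 46.2 and 41.0 against 194, 227 and 198 CPM. Of the sequences of HSPA1A and HSPA1B 72.2% and 74.1% is shared with other genes, and 56.9% of that of HSPA6, so how the reads divide among them is uncertain. BAG3, a cochaperone of HSP70, had a log2 fold change of -1.13, and of -0.93 with the total count as the only scale.

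The promoter of HSPA6 is shown for its match to the heat shock element, the site of the factor HSF1. The window lies at chr1:161524290-161524539 on the plus strand (RefSeq, GRCh38.p14), 250 bases before the RefSeq start, and capitals mark 1 match of TTC, 2 bases of any kind, GAA, 2 bases of any kind and TTC. The same triplets in the order GAA, TTC and GAA were searched as well.
HSPA6: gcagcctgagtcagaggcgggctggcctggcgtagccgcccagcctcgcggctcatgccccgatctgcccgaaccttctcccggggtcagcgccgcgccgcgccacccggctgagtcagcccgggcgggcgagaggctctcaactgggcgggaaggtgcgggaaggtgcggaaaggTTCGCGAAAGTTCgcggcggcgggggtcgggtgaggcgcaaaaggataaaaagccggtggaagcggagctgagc
Of the 12 heat shock promoters matched, 3 held these letters, against 0.49% of all promoters. The 3 were those of HSPA6, DNAJA1 and HSPA8, while those of HSPA1A, HSPA1B and BAG3 held no match.

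Genes of protein folding in the endoplasmic reticulum had the same direction in those called. Of 21 tested members 5 were higher with vancomycin and none with iohexol (all genes 10.8% and 9.05%), with a median of -0.59. By the adjusted p alone 13 were higher with vancomycin and 2 with iohexol (all genes 27.8% and 26.3%). With the total count as the only scale 3 members were called. MANF, a secreted protein of the unfolded protein response, had 19.9, 18.2 and 15.8 CPM with iohexol and 55.6, 64.3 and 62.9 CPM with vancomycin, a 3.36-fold difference (log2 -1.75, SE 0.13, adjusted p = 2.26e-09). SDF2L1 and CRELD2, further secretory pathway proteins that this response induces, were 2.55-fold and 2.46-fold higher with vancomycin. ALG12 overlaps CRELD2. PDIA3, a disulfide isomerase that folds glycoproteins, had 268, 257 and 273 CPM with iohexol, below all 3 control samples (364, 366 and 355 CPM), and 545, 647 and 579.6 CPM with vancomycin, above all 3. Its log2 difference was -1.14, and -0.94 with the total count as the only scale.

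Of 25 targets of ATF4, the factor of the amino acid and integrated stress response, 3 were higher with iohexol and 3 with vancomycin, near the shares of all genes (9.05% and 10.8%). Those higher with iohexol were enzymes of amino acid synthesis and those higher with vancomycin transcription factors or cofactors, and the difference between these roles was not tested. PSAT1, an enzyme of serine synthesis, had 109.9, 103 and 99.97 CPM with iohexol and 38.5, 38.9 and 32.6 CPM with vancomycin, which was below the control (log2 -1.28). PSPH, the last enzyme of that path, had 74.5, 73.5 and 67.0 CPM against 30.5, 28.4 and 28.6 CPM. CTH, which makes cysteine from cystathionine, was 2.33-fold higher with iohexol (log2 1.22, SE 0.14, adjusted p = 6.47e-07), and vancomycin was not called against the control (log2 0.19). ATF3, a stress-induced repressor, had 25.2 to 29.9 CPM with iohexol and 78.6 to 92.0 CPM with vancomycin (log2 -1.56, SE 0.12). CEBPB, a factor of inflammation and metabolism, and NUPR1, a stress-induced chromatin protein, were 2.66-fold and 5.04-fold higher with vancomycin. The median over the 25 members was 0.10, and ATF4 itself passed the adjusted p but not the fold threshold (log2 -0.63, adjusted p = 0.00021), with 43.6% of its sequence shared with other genes.

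Lysosomal genes leaned to vancomycin. Of 42 tested members 10 were higher with vancomycin and none with iohexol (all genes 10.8% and 9.05%), with a median of -0.56, and by the adjusted p alone 30 were higher with vancomycin, against 27.8% of all genes, and 2 with iohexol. The 10 became 4, with 1 member higher with iohexol, when the total count was the only scale. CTSL, the cysteine protease cathepsin L, had 64.8, 56.3 and 48.4 CPM with iohexol, 54.6, 57.5 and 58.3 CPM in the control and 192, 240.0 and 224 CPM with vancomycin, a 3.84-fold difference between the drugs (log2 -1.94, SE 0.12, adjusted p = 3.74e-10). CTSB, cathepsin B, had 478, 465 and 383 CPM against 1138, 1254 and 1280.4 CPM. CD63, a tetraspanin of lysosome and endosome membranes, had 484, 450.1 and 267 CPM against 1149.7, 1430.1 and 1329 CPM, and iohexol replicate 3 was the lowest of its group. CTSK, the collagen-degrading cathepsin K, was 2.61-fold higher with vancomycin (log2 -1.39, SE 0.21).

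For the proton pump that acidifies lysosomes, of 16 subunit genes 3 were higher with vancomycin and none with iohexol, where 10.8% and 9.05% of all genes were, with a median of -0.48. Each of the 3 has a limit. ATP6V0D2, a subunit known from osteoclasts and kidney, had 0.276, 0.128 and 0.601 CPM with iohexol and 4.32, 5.199 and 7.02 CPM with vancomycin (log2 -4.00, SE 0.40), with one iohexol sample under the floor of 3 counts, and passed the filter on low counts through the vancomycin samples. For ATP6V0C, 80.5% of the sequence is also found in further genes, and AC093525.8 overlaps it. ATP6V0B, at log2 -1.04, was under the fold threshold with the total count as the only scale (-0.85), without iohexol replicate 3 (-0.92) and without vancomycin replicate 2 (-0.998). Among autophagy genes 4 of 21 were higher with vancomycin and 1 with iohexol, with a median of -0.28, against the same shares of all genes. GABARAP, one of the 4, had 12, 23 and 4 counts with iohexol, has 53.1% of its sequence in common with further genes and is overlapped by AC120057.3. SQSTM1 (p62), the receptor that carries cargo into autophagosomes, had 333, 338 and 280.4 CPM against 1024, 1067 and 1041 CPM (log2 -1.71, SE 0.10, adjusted p = 2.1e-10). WIPI1, which binds forming autophagosomes, was 2.33-fold higher with vancomycin. MGAT4B overlaps SQSTM1 and ARSG overlaps WIPI1. MITF, a factor of the family that drives lysosomal genes, went the other way, with 102, 103 and 117 CPM with iohexol, 33.1, 29.6 and 30.5 CPM with vancomycin and 149.9, 137 and 137 CPM in the control (log2 1.80, SE 0.11). TFEB, of the same family, had a log2 difference of -0.41 (SE 0.20, adjusted p = 0.0836).

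Genes of cholesterol synthesis and uptake were near the shares of all genes (10.8% and 9.05%), with 4 of 25 members higher with vancomycin and 2 with iohexol and a median of -0.22. Of the 2 higher with iohexol, TM7SF2 (log2 1.01) had overlapping samples and is overlapped by VPS51. It lost its call with limma-voom, in the fit of all 12 samples, with a replicate block and without a filter. The call was also lost without iohexol replicate 1 or 2 or vancomycin replicate 3. With the total count as the only scale 2 were higher with vancomycin. INSIG1, which holds back the sterol-regulated factors, had 119, 107 and 115 CPM against 272, 317 and 272 CPM (log2 -1.32, SE 0.10). SREBF2, the factor that drives the pathway, had a log2 difference of 0.03 (95% interval -0.19 to 0.25). Outside synthesis, APOE, the apolipoprotein that carries cholesterol out of cells, had 132, 115 and 80.5 CPM with iohexol, 677, 844 and 769 CPM with vancomycin and 46.1, 60.1 and 59.4 CPM in the control. APOE rose with both drugs, to a level 6.94-fold higher with vancomycin (log2 -2.79, SE 0.15, adjusted p = 4.39e-11). MYLIP, a ligase that removes the LDL receptor, was 3.58-fold higher with iohexol, with iohexol above and vancomycin below every control sample.

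Genes of matrix proteolysis were higher with vancomycin in 10 of 15 tested members and with iohexol in 1 (all genes 10.8% and 9.05%), with a median of -2.77. Of the 10, MMP2, MMP9, MMP10 and MMP13 passed the filter on low counts through the vancomycin samples. Vancomycin was above the control in 10 members (all genes 10.8%) and iohexol below it in 4 (all genes 1.25%). MMP1 (chr11:102789920-102798160, minus strand), interstitial collagenase, had 18.5, 12.3 and 18.5 CPM with iohexol, 31.2, 35.4 and 30.97 CPM in the control and 337, 427 and 389 CPM with vancomycin. It was 23.2-fold higher with vancomycin than with iohexol (log2 -4.53, SE 0.15, adjusted p = 1.64e-13). MMP13, a further collagenase, was near the floor with iohexol (0.345, 0.384 and 0.802 CPM) and had 13.6, 16.0 and 17.2 CPM with vancomycin. MMP2, a gelatinase, had 0.415, 1.15 and 0.535 CPM against 17.3, 20.3 and 22.7 CPM. MMP9, the other gelatinase, had 0.415, 0.704 and 0.468 against 12.4, 15.1 and 15.2 CPM and overlaps SLC12A5-AS1. The member higher with iohexol was PLAT, tissue plasminogen activator, at 94.0, 73.7 and 94.0 CPM against 17.0, 18.7 and 19.5 CPM, and 36.0, 37.3 and 39.8 CPM in the control.

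The promoter of MMP7 is printed because this gene had the smallest p of the protein-coding genes and several of these proteases are known targets of the factor AP-1. The window lies at chr11:102530748-102530997 on the minus strand (RefSeq, GRCh38.p14), 250 bases before the RefSeq start, and capitals mark 1 match of TGANTCA.
MMP7: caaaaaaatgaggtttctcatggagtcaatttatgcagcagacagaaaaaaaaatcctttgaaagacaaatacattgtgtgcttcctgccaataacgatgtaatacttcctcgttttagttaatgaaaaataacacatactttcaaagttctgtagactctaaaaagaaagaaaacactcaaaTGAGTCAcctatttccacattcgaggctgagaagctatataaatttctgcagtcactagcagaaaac
The letters were found in 3 of the 8 matched promoters of the proteolysis genes and in 7.71% of all promoters.

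Adhesive and matricellular genes did not share a direction, with 4 of 12 higher with iohexol and 4 with vancomycin (all genes 9.05% and 10.8%). CYR61, an integrin ligand that YAP is known to induce, had 1281, 1264 and 1011 CPM with iohexol and 334, 335 and 360.0 CPM with vancomycin, which was below every control sample (1382, 1572 and 1592 CPM). TNFAIP6, a hyaluronan-binding protein made in inflammation, was below the control with both drugs, at 3.25, 3.39 and 2.21 CPM with iohexol, 0.938, 0.743 and 0.554 CPM with vancomycin and 13.3, 13.3 and 10.5 CPM in the control (log2 between the drugs 1.99, SE 0.35, adjusted p = 0.000119). FN1, fibronectin, held the most counts in every sample, 2.11% to 2.49% of the total with iohexol and 3.46% to 4.70% with vancomycin, and was named here after its share was seen.

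Collagens also divided by both thresholds, with 4 of 16 tested members higher with each drug (all genes 9.05% with iohexol and 10.8% with vancomycin). Their median log2 fold change was -0.67 (all genes 0.01). Passing the adjusted p alone were 4 toward iohexol and 11 toward vancomycin (all genes 26.3% and 27.8%). COL14A1, a collagen that sits on the surface of fibrils, had 1182, 1182 and 1206 CPM with iohexol, 258, 204 and 228 CPM with vancomycin and 189.8, 179 and 181 CPM in the control. Iohexol was above every control sample, and 5.21-fold above vancomycin (log2 2.38, SE 0.11, adjusted p = 6.73e-12). COL5A1, which sets the width of collagen fibrils, had 31.3, 39.3 and 32.2 CPM with iohexol, 86.3, 114 and 105 CPM in the control and 422, 358 and 406 CPM with vancomycin, which was 11.4-fold higher than iohexol (log2 -3.51, SE 0.12). COL6A1 and COL6A2, chains of the beaded-filament collagen VI, were 2.39-fold and 2.92-fold higher with vancomycin. COL16A1 was 3.67-fold higher with vancomycin, and COL11A1 and COL17A1 were higher with iohexol at low levels, 2.07, 2.17 and 1.74 CPM and 3.80, 1.66 and 1.20 CPM. With a filter of 10 counts in every sample 2 collagens remained higher with iohexol.

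In the TGF-beta list, 1 of 20 members was higher with iohexol and 3 with vancomycin, where 9.05% and 10.8% of all genes were, with a median of -0.08. INHBA, the chain of activin A, had 149, 146 and 155 CPM with iohexol, 586, 597 and 559 CPM with vancomycin and 470.2, 487 and 473 CPM in the control, with iohexol below and vancomycin at or above the control. The drugs differed 3.84-fold (log2 -1.94, SE 0.10, adjusted p = 2.75e-11). PMEPA1, a TGF-beta target that dampens the signal, was lower with iohexol too, with vancomycin and control samples overlapping, at 89.9, 86.2 and 72.0 CPM with iohexol, 244, 258 and 246 CPM with vancomycin and 225, 272 and 260.3 CPM in the control. TGFB2, one of the TGF-beta ligands, went the other way, with 167, 163 and 203 CPM with iohexol and 63.1, 62.0 and 62.1 CPM with vancomycin, both below the control (318, 272 and 288 CPM). BMP2, a bone morphogenetic protein, was 2.61-fold higher with vancomycin. Of 15 contractile genes 4 were higher with vancomycin and none with iohexol, against the same shares of all genes and with a median of -0.27. One was TAGLN (transgelin), an actin-binding protein of smooth muscle, at 11.9, 10.6 and 10.1 CPM against 29.1, 32.7 and 29.6 CPM. PCSK7 overlaps TAGLN. ACTA2 and ACTG2 were 2 of the 4 and passed the filter on low counts through the vancomycin samples. They had at most 2.28 CPM and 1.11 CPM in any of the 6 samples, and FAS, STAMBPL1 and ACTA2-AS1 overlap ACTA2. SRF, the factor named for the list, had a log2 difference of -0.92 (adjusted p = 5.02e-06), under the fold threshold.

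Interferon targets were higher with vancomycin in 10 of 17 tested members and with iohexol in none (all genes 10.8% and 9.05%), with a median of -1.20. Vancomycin was above the control in 14 members (all genes 10.8%) and iohexol in 1 (all genes 4.02%). ISG15 (chr1:1001138-1014540, plus strand), a ubiquitin-like protein that is attached to others in antiviral defence, had 51.3, 50.3 and 37.0 CPM with iohexol, 216, 267 and 235 CPM with vancomycin and 26.5, 39.5 and 31.4 CPM in the control. It was 5.13-fold higher with vancomycin than with iohexol (log2 -2.36, SE 0.13, adjusted p = 6.46e-11). IFI44L, a further gene that interferon induces, had 4.70, 6.40 and 6.68 CPM with iohexol, below every control sample (9.00, 8.59 and 8.02 CPM), and 39.8, 39.1 and 39.7 CPM with vancomycin. IFI6, a mitochondrial protein that interferon induces, and OAS1, which senses double-stranded RNA, were 5.23-fold and 3.86-fold higher with vancomycin.

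The promoter of ISG15 is shown for its match to the interferon-stimulated response element. Its start in RefSeq lies inside the longer span that the deposited annotation gives the gene. The window lies at chr1:1013247-1013496 on the plus strand (RefSeq, GRCh38.p14), 250 bases before the RefSeq start, and capitals mark 2 overlapping matches of GAAA, 2 bases of any kind and GAAA.
ISG15: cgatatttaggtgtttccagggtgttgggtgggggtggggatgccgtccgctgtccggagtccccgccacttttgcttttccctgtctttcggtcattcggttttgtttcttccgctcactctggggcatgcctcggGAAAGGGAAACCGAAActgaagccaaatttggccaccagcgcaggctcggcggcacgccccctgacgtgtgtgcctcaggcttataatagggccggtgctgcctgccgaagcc
The letters were in 11 of 14 matched interferon-target promoters and in 3.57% of all promoters.

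Of 27 tested inflammation genes 3 were higher with iohexol and 9 with vancomycin, where 9.05% and 10.8% of all genes were, with a median of -0.46. TNF, the cytokine that starts much of the inflammatory response, was higher with iohexol, at 11.3, 8.00 and 7.28 CPM against 2.00, 1.55 and 1.29 CPM with vancomycin and 4.50, 7.34 and 7.23 CPM in the control (log2 2.46, SE 0.25, adjusted p = 1.56e-07). IL18, a cytokine matured by the inflammasome, was 2.09-fold higher with iohexol. Its log2 fold change was 1.06, and 0.95 without iohexol replicate 3 and 0.97 without vancomycin replicate 1, under the fold threshold. VCAM1, the endothelial and tubular adhesion receptor for leukocytes, had 3.87, 5.31 and 4.48 CPM with iohexol, 20.2, 19.6 and 19.6 CPM in the control and 32.8, 36.3 and 32.5 CPM with vancomycin, a 7.34-fold difference (log2 -2.88, SE 0.16). The chemokine CCL5 was under the floor in all 3 iohexol samples and had 2.56, 3.71 and 3.08 CPM with vancomycin. IL32, a cytokine of epithelial cells, was 4.27-fold higher with vancomycin (92.9, 97.0 and 72.0 against 340.3, 408 and 382 CPM). Of the receptors and NF-kB genes, which carry these signals into the nucleus, 3 of 10 were higher with vancomycin and none with iohexol, against the same shares of all genes.

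CDKN1A (p21), which stops the cell cycle, had 75.0, 80.5 and 57.9 CPM with iohexol, 276, 293 and 296 CPM with vancomycin and 38.2, 48.0 and 50.4 CPM in the control (log2 -2.005, SE 0.12, adjusted p = 1.88e-10). PHLDA3, an inhibitor of the kinase AKT, and PLK3, a stress-responsive kinase, were 4.97-fold and 4.07-fold higher with vancomycin.

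Genes of mitosis and replication that were called were higher with iohexol. Of 30 mitosis genes 5 were higher with iohexol and none with vancomycin (median 0.59), and of 32 replication genes 4 and none (median 0.47). By the adjusted p alone the counts were 22 against 2 and 20 against 2, where 26.3% and 27.8% of all genes passed in each direction. By both thresholds 9.05% of all genes were higher with iohexol, so the count of 4 replication genes is near that share. Against the control no member of these lists was called with iohexol (all genes 5.28%). Vancomycin was below the control in 13 mitosis and 11 replication genes (all genes 7.65%). TOP2A, the topoisomerase that untangles replicated DNA, had 486, 481 and 636 CPM with iohexol, 268, 251 and 239 CPM with vancomycin and 660.4, 602 and 563 CPM in the control. The groups did not overlap, and iohexol replicate 3 was the highest of its group (log2 1.09, SE 0.12, adjusted p = 3.32e-07). KIF23, a motor of the dividing cell's midbody, had 95.1, 92.2 and 120.1 CPM against 54.2, 47.1 and 42.6 CPM. CDC6, which loads the replicative helicase onto DNA, had 87.5, 75.9 and 91.8 CPM against 41.5, 40.2 and 43.7 CPM (log2 1.04, SE 0.11), and 0.994 without iohexol replicate 3 and 0.998 without vancomycin replicate 2, just under the fold threshold.

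The count past the fold threshold depended on single libraries. Without iohexol replicate 3 no mitosis gene and 1 replication gene were called. Without vancomycin replicate 2 the counts were 3 and 2, and without vancomycin replicate 3 the mitosis count was 2. The log2 difference of TOP2A was 0.97 without iohexol replicate 3, and that of KIF23 was 0.99, in the same direction but under the fold threshold. With the total count as the only scale 9 replication genes were higher with iohexol.

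Genes of glycolysis and hypoxia were higher with vancomycin in 8 of 27 members and with iohexol in none (all genes 10.8% and 9.05%), with a median of -0.82. SLC2A3, the glucose carrier GLUT3, had 24.6, 21.3 and 24.3 CPM with iohexol, 27.8, 25.5 and 29.9 CPM in the control and 99.3, 108 and 101 CPM with vancomycin (log2 -2.12, SE 0.11, adjusted p = 4.86e-11). ADM, the vasodilator adrenomedullin and a hypoxia target, had 26.8, 24.7 and 21.3 CPM against 76.2, 98.8 and 85.0 CPM. CA9, carbonic anhydrase IX, was low with iohexol (0.760, 0.512 and 0.735 CPM) and had 9.45, 10.5 and 9.73 CPM with vancomycin, and ARHGEF39 overlaps it. In ALDOA, the glycolytic aldolase, 67.1% of the sequence is shared with other genes, so its 7.73-fold difference is uncertain.

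**Figure D4:**
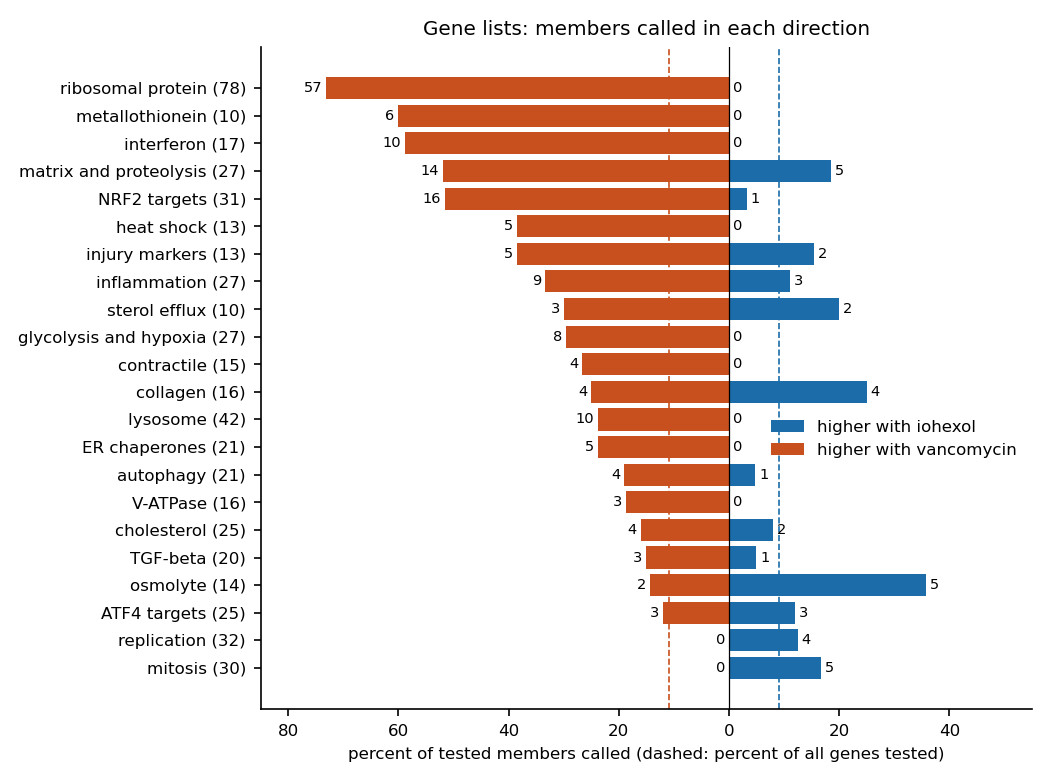
Bars give the percent of each list's tested members (number in brackets) called higher with iohexol, to the right, or with vancomycin, to the left, with the number of genes at the bar's end. Dashed lines mark the shares over all genes tested, 9.05% and 10.8%. Among the lists drawn, ribosomal protein genes (57 of 78 higher with vancomycin) lay farthest to the left and osmolyte genes (5 of 14 higher with iohexol) farthest to the right.

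Ribosomal protein genes, which encode the building blocks of the ribosome, were higher with vancomycin in 57 of 78 members and with iohexol in none (all genes 10.8% and 9.05%), with a median of -1.31. By the adjusted p alone 74 were higher with vancomycin and 1 with iohexol (all genes 27.8% and 26.3%). They held 2.92%, 2.68% and 2.38% of all counts in the iohexol samples, 5.37%, 6.23% and 5.66% in the vancomycin samples and 3.46%, 3.64% and 3.42% in the control samples. The difference of 3.09 percentage points had an exact two-sided permutation p of 0.1, the smallest that 3 samples against 3 can give. RPL35, a protein of the large subunit, had 408, 346 and 227 CPM with iohexol, 426, 579 and 528 CPM in the control and 1413, 1615 and 1457 CPM with vancomycin (log2 -2.18, SE 0.15). RPL41 had 212, 179.7 and 188 CPM against 841, 968 and 840.3 CPM. These genes have many processed pseudogenes, and 22.9% and 36.6% of the sequence of RPL35 and RPL41 is shared.

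The protein genes of the mitochondrial genome, which encode parts of the respiratory chain, had the opposite order as a sum. These 13 genes held 4.33%, 4.32% and 5.10% of all counts with iohexol, 2.87%, 3.07% and 2.95% with vancomycin and 4.86%, 4.58% and 4.31% in the control (exact two-sided permutation p = 0.1 between the drugs). No member passed the fold threshold toward iohexol, and 8 of 13 passed the adjusted p alone in that direction (all genes 26.3%); with the total count as the only scale 2 passed both. In the other direction 2 members passed the adjusted p. MT-ATP8, a small subunit of ATP synthase whose gene overlaps MT-ATP6, had 14.3, 15.7 and 14.1 CPM with iohexol against 81.1, 76.6 and 61.3 CPM with vancomycin. MT-ND4L, a subunit of complex I, had a log2 difference of -0.41 (adjusted p = 0.00423), under the fold threshold. The ribosomal RNA MT-RNR2 of the same genome held 0.907%, 0.864% and 1.00% of all counts with iohexol and 1.18%, 1.12% and 1.02% with vancomycin, and so did not follow the protein genes. MT-RNR1, the other ribosomal RNA, was higher with vancomycin (log2 -1.26, SE 0.12). MT-ND4L and both ribosomal RNAs are named here after their values were seen.

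Structural RNAs, most of which carry no poly(A) tail, took more counts in the vancomycin libraries, although poly(A) RNA was selected. RN7SL2, an RNA of the signal recognition particle, had 2.35, 1.98 and 0.535 CPM with iohexol, 1.38, 2.82 and 1.84 CPM in the control and 150.1, 162 and 157 CPM with vancomycin (log2 -6.57, SE 0.23, adjusted p = 1.85e-13). RN7SL3, a further gene of this RNA, had 1 count summed over the iohexol samples and 202 over the vancomycin samples, a ratio of 194 with an exact 95% counting interval of 34.4 to 7683. SNORD3A, the U3 small nucleolar RNA, had 1 count against 466, a ratio of 447 (79.8 to 17676). Most of these sequences are shared with copies elsewhere (74.1% to 100%), so the genes named are uncertain. RN7SL2 passed the filter on low counts through the vancomycin samples, so its adjusted p is a description. SNORA73B, a further small nucleolar RNA, was the one tested member higher with iohexol, at 0.898, 2.37 and 1.54 CPM against 0.938, 0.675 and 0.493 CPM, and lost its call without iohexol replicate 2 and without vancomycin replicate 2 or 3. RCC1 and SNHG3 overlap it, and reads of these genes cannot be told apart from its own. Of 18 structural RNAs, 4 could be tested, and the 18 made up 0.000225% to 0.000484% of all counts with iohexol and 0.0149% to 0.0158% with vancomycin. RN7SL2 alone gave 150, 162 and 157 of the 166, 178 and 171 CPM of the list in the vancomycin samples.

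Gene length moved with the comparison. Over the 120 protein-coding genes tested with a deposited length under 1000 bases the median log2 fold change was -0.80, and 41.7% were higher with vancomycin. In the 2947 genes over 8000 bases the median was 0.13, and 4.92% were higher with vancomycin. The same medians were 0.73 and -0.17 for vancomycin against the control and -0.11 and -0.02 for iohexol against the control. After the median of its length class was taken from each gene, an alternative chosen after the data were seen, the list medians were -1.19 for ribosomal protein genes, -0.60 (before, -1.24) for the 10 tested metallothioneins, zinc carriers and MTF1, 1.03 (before, 0.38) for the mitochondrial genome, -0.89 for NRF2 targets, -1.03 for interferon targets, -0.57 for lysosomal genes, 0.59 for osmolyte genes and 0.71 for mitosis genes. The median went from -0.48 to -0.28 for proton pump subunits, from -0.27 to -0.16 for contractile genes, from -0.17 to -0.10 for sterol efflux genes and from 0.10 to 0.18 for ATF4 targets. Beyond this the part of length, ribosomal protein share and structural RNA in the results was not tested.

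**Figure D5:**
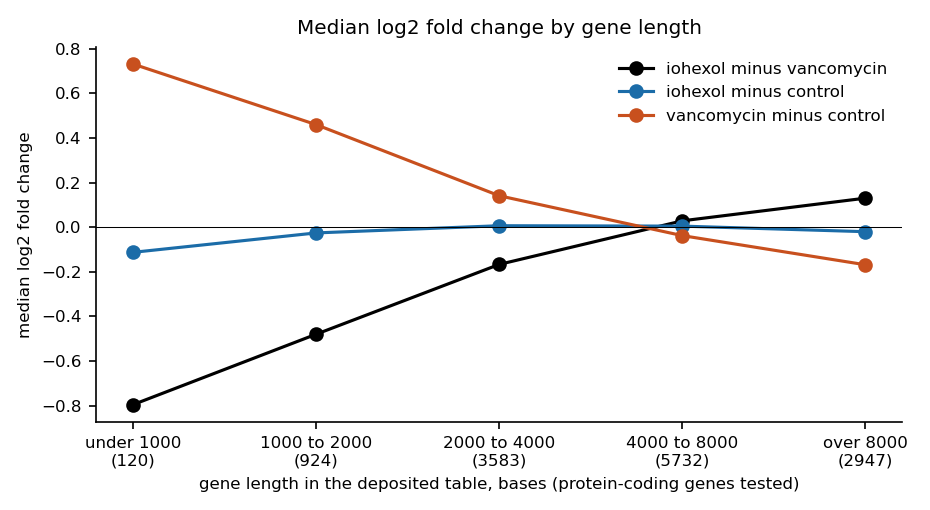
Median log2 fold change (vertical axis) of protein-coding genes in 5 classes of deposited gene length in bases (horizontal axis, number of genes in brackets), for the direct comparison and for each drug against the control. The direct medians rise from -0.80 to 0.13 with length while those of iohexol against the control lie between -0.11 and 0.01.

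Of 13 tested conventional markers of tubular injury 2 were higher with iohexol and 5 with vancomycin, where 9.05% and 10.8% of all genes were. HAVCR1 (KIM-1), a receptor that injured tubules expose, had 172, 199 and 221 CPM with iohexol, 93.8, 71.4 and 88.6 CPM with vancomycin and 196, 186 and 186 CPM in the control, so that vancomycin lay below the control (log2 between the drugs 1.23, SE 0.12, adjusted p = 1.51e-07). LCN2 (NGAL), an iron-carrier binding protein, rose with both drugs from 2.10, 2.32 and 2.89 CPM, to 10.8, 9.47 and 7.75 CPM with iohexol and 22.1, 26.9 and 24.9 CPM with vancomycin (log2 -1.39, SE 0.15). B2M, the light chain of MHC class I, had 406, 375 and 400.3 CPM against 1246, 1610.2 and 1347 CPM, and SPP1, osteopontin, 1448, 1360.1 and 1457 CPM against 3299, 4013 and 3415 CPM. TIMP2 and IGFBP7, which are read together as a urine test, did not go together. TIMP2 had a log2 difference of 0.22 (95% interval 0.02 to 0.42), and IGFBP7, which POLR2B overlaps, was 2.39-fold higher with vancomycin.

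CLU (log2 -0.42), CST3 (-0.61) and ANXA2 (-0.53) passed the adjusted p toward vancomycin and SOX9 (0.56) toward iohexol, all under the fold threshold. CCL2 did not pass (log2 0.46, adjusted p = 0.363). KRT20 did not reach the filter, and TFF3 had no count in the 9 samples used.

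The 4 genes that the study ranked as hubs were chosen on these samples against the control, so their distance from the control is no independent evidence. Between the drugs AOC3, an amine oxidase of vessel walls, had 1.87, 1.15 and 1.67 CPM with iohexol and 2.63, 3.98 and 3.57 CPM with vancomycin (log2 -1.10, SE 0.30, adjusted p = 0.00433). That value was -0.91 with the total count as the only scale and -0.90 and -0.99 without iohexol replicate 2 and vancomycin replicate 2. TLR4, the receptor of bacterial endotoxin, had 0.829, 0.959 and 1.07 CPM against 1.81, 1.08 and 1.23 CPM (log2 -0.52, 95% interval -1.32 to 0.29). IRF4, a factor of lymphocytes, had 0.691, 0.704 and 0.601 CPM against 0.876, 0.945 and 0.431 CPM, overlapping groups close to the floor. TNFAIP6, the fourth, is given above.

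In 263 genes both drugs were called in the same direction against the control, and 53 of these were called between the drugs as well. In 29 of the 263 the 95% interval of the direct log2 difference lay within 0.5 on either side of 0. By counts the first of these was FTH1, at 2822, 2870.4 and 2519 CPM with iohexol, 3238, 3197 and 2999 CPM with vancomycin and 1319, 1385 and 1440.1 CPM in the control (direct log2 -0.19, 95% interval -0.39 to 0.01), although 46.7% of its sequence is shared with other genes. NEU1, a lysosomal sialidase, had 339.8, 316 and 289 CPM with iohexol, 288, 317 and 335 CPM with vancomycin and 131, 136 and 135 CPM in the control, with overlapping drug groups (direct log2 0.02, 95% interval -0.20 to 0.24). CRYAB, a small heat shock protein, EPHX1 and KLHL24, a ligase adaptor, had direct log2 differences of -0.09, 0.19 and -0.11 and were above the control with both drugs. UBA6, a ubiquitin-activating enzyme, was below it with both, at 161, 160.2 and 208 CPM with iohexol and 197, 197 and 176 CPM with vancomycin against 456, 393 and 370.0 CPM in the control (direct log2 -0.09).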

How the data were processed

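RNA-seq libraries of poly(A) RNA from HK-2 cells were analysed in 3 samples each of the iohexol, vancomycin and control groups, as given by the labels; the cisplatin samples entered only the scale factors and 1 alternative fit. The authors deposited whole read counts per gene for all samples in a single table, with gene lengths; the submitters' processing notes name CASAVA 1.8, fastp, HISAT2 2.0.5, featureCounts 1.5.0-p3 and DESeq2 1.20.0. Strand setting and annotation release of the counting are not given in the sources used here, and 58690 of 58735 genes had the coordinates of GENCODE 29 (GRCh38). The study's methods name limma. Because the values are counts, the main test was edgeR's quasi-likelihood test (edgeR 4.0.16, R 4.3.3) on the 6 drug samples, after filterByExpr (minimum count 10) and TMM scaling, with Benjamini-Hochberg adjustment over all genes tested. Each drug was fitted against the control in the same way. The thresholds for a call were 0.05 for the adjusted p and 1 or -1 for the log2 fold change. CPM used TMM factors over all 12 samples.

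Named genes were the 8 with the smallest p in each direction, up to 4 called members of each list in each direction with the largest change, the factor a list is named for, the hub and injury genes, the 6 with the largest difference among those in opposite directions against the control and the 6 with the highest level among those that moved alike. The members and lists were chosen with earlier results of these data known. Shared sequence is the percent of a gene's 31-base stretches, taken every 5 bases, that occur in another gene's transcripts. It was 15.7% in AKR1B1 and PSPH, 17.8% in AOC3, 21.7% in ANXA2, 23.1% in CCL5 and 24.5% in TGFB2. In SLC2A3, AQP1, PDIA3 and MT-ATP8 it was 30.6%, 30.7%, 31.6% and 41.7%. The levels of these genes are likewise uncertain. AGPS overlaps NFE2L2, TMEM63A overlaps EPHX1, AL139147.1 overlaps SGIP1 and AC093512.2 overlaps ALDOA. DESeq2 1.42.0, limma-voom 3.58.1, other scale factors and filters, a replicate block and the removal of each sample were tried as alternatives. Some genes are not reported here. Scripts were tested on simulated data.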

Additional observations from a re-analysis of the deposited data

Results flagged for a closer look

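A total of 57 genes were called in the direct comparison and also in opposite directions against the control with the 2 drugs. The 15 of these named by the rule are given here. The direct adjusted p is from edgeR's quasi-likelihood test. A call in that test was a condition of the choice, so this adjusted p is no further evidence. PAX2, SGIP1, ITGB2-AS1, PECAM1, TP53I11 and AL161431.1 passed the filter on low counts through the iohexol samples. MMP9 and CA9 passed it through the vancomycin samples. For these genes the adjusted p is a description only. The control samples are shared by both comparisons with the control.

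In 8 of the 15, iohexol was above and vancomycin below the control and the direct log2 fold change was positive. It was 6.38 in TP53I11 (adjusted p = 1.29e-12), which had 7, 4 and 2 counts in the vancomycin samples. In COL12A1 it was 2.85 (adjusted p = 1.29e-12) and in PLAT 2.26 (adjusted p = 1e-10). AL161431.1, a long noncoding RNA, had 28.2, 23.5 and 34.5 CPM with iohexol, 0.438, 0.810 and 0.431 CPM with vancomycin and 2.32, 2.51 and 2.10 CPM in the control, a log2 fold change of 5.69 (adjusted p = 3.4e-12). PECAM1, a marker of endothelial cells, had 4.01, 3.77 and 3.61 CPM with iohexol against 0.188, 0 and 0.0616 CPM with vancomycin, where it was at or under the floor of 3 counts (5.37, adjusted p = 8.15e-08); CDH5 and KDR, which also mark that cell type, were at or near 0. ITGB2-AS1 (5.70, adjusted p = 2.64e-08) had 5.73, 4.73 and 3.94 CPM against 0.0626, 0.203 and 0 CPM and overlaps ITGB2. PAX2, a transcription factor of the developing kidney, had 5.87, 3.45 and 3.81 CPM with iohexol and a single count over the vancomycin samples.

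The fitted value of PAX2, 7.23 (adjusted p = 1.89e-08), depends on the prior count, and the ratio of its counts was 205 with an exact 95% counting interval of 36.3 to 8119. SGIP1, an endocytic adaptor with 125 counts against 2, had a fitted value of 5.79 (adjusted p = 1.78e-06) and a ratio of 65.2 (17.7 to 544).

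In the remaining 7, iohexol was below and vancomycin above the control and the direct log2 fold change was negative. It was -4.76 in MMP7, -4.83 in IL11, -3.67 in PLAUR and -3.51 in COL5A1. It was -4.71 in MMP9, -3.86 in CA9 and -2.10 in IL32. The adjusted p of these 7 ran from 9.45e-15 in MMP7 to 5.05e-10 in CA9.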

How the results depend on the processing

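The number of genes higher with iohexol (1453) was 1398 with DESeq2, 1503 with limma-voom, 1473 with RLE size factors, 2067 with the total count as the only scale, 1744 without a filter, 1000 with at least 10 counts in every sample and 1624 in a fit of all 12 samples. The number higher with vancomycin (1732) was 1660, 1751, 1716, 1262, 2013, 1275 and 1808 in the same order. Leaving out 1 sample at a time gave 1411 to 1610 and 1586 to 1876. The genes higher with iohexol in which iohexol was also above the control fell from 269 to 149 with at least 10 counts in every sample, a filter under which fewer genes were tested, and were 225 to 310 with 1 sample left out. Same-numbered samples did not deviate together (r -0.14, -0.04 and -0.12), so the numbers were not taken as pairs, and the fit with the replicate block called 1454 and 1738 genes, of which 1414 and 1710 were among the 1453 and 1732. Of 2140 recomputed log2 fold changes of named genes, 2085 kept their side of the thresholds and 55 missed a threshold. Most of the 55 came without iohexol replicate 3, without vancomycin replicate 2 or 3 or with the total count as the only scale. None of the named genes called in the main fit reversed. For named genes not called there, the direction was not compared. Of 780 recomputed list counts 42 moved by over 1.5 times. Genes near 3 counts in a group are limited by depth.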

Other observations

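Noncoding genes and pseudogenes divided differently from protein-coding genes. Of 13306 protein-coding genes tested 7.05% were higher with iohexol and 10.8% with vancomycin. Among 769 antisense genes the shares were 19.4% and 6.24%, among 575 long intergenic noncoding RNAs 22.3% and 7.83%, and among 116 sense intronic genes 25.9% and 0.862%. Processed pseudogenes, copies made from spliced RNAs, had the other order, with 12.6% of 444 higher with iohexol and 28.2% with vancomycin. The counting is not stated to use strand, so reads of an antisense or intronic gene cannot be told apart from those of its host.

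Iohexol replicate 3 gave different values from the other iohexol samples in several named genes. The mitosis genes summed to 4120, 4101 and 5030 CPM in iohexol replicates 1, 2 and 3 and to 2933, 2768 and 2708 CPM in the vancomycin samples. Over genes, the counts of iohexol replicate 3 differed from those of replicates 1 and 2 by 17.5 and 16.5 times the sampling noise (chi-square over its degrees of freedom), and replicates 1 and 2 from each other by 3.82 times. The same ratio was 6.24 to 13.1 between the vancomycin samples and 3.24 to 10.8 between the control samples.

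The proximal tubule markers summed to 455 to 481 CPM with iohexol and to 1005 to 1051 CPM with vancomycin, with DPP4, a peptidase of the brush border, as the member with the most counts at 206 to 218 CPM and 549 to 595 CPM. The members did not share this direction: of 8 tested, 2 were higher with iohexol and 3 with vancomycin, where 9.05% and 10.8% of all genes were, with a median log2 fold change of 0.05.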
